A study of Homo sapiens with 12 samples.

Results

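The respiratory chain and ATP synthase of the inner mitochondrial membrane are built from subunits encoded in the nucleus and a smaller set encoded in mitochondrial DNA. The nuclear subunits were described here across 4 groups of K562 cells. They were chosen by symbol alone (the NDUFA, NDUFB, NDUFC, NDUFS and NDUFV families, SDHA to SDHD, UQCR, CYC1, COX4 to COX8 and ATP5 genes), with no use of measured values, and 90 of the 28278 genes in the count table met the rule. Of these, 37 belong to complex I, 4 to complex II, 10 to complex III, 18 to complex IV and 19 to complex V. The remaining 2 are UQCRBP1, a pseudogene, and ATP5MF-PTCD1, a readthrough transcript. NDUFA4 was counted with complex IV, of which it is now known to be a subunit.

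K562 is an erythroleukaemia line whose cells can be driven towards haemoglobin production, and sodium butyrate, a histone deacetylase inhibitor, is one of the agents used for this. The groups were WT cells left untreated, WT cells given butyrate, HRG1-KO cells left untreated and HRG1-KO cells given butyrate, with 3 libraries in each. HRG1 is the haem transporter encoded by SLC48A1. The first dose of butyrate (0.75 mM) came 24 h after cells were plated and the second 48 h after the first. Total RNA was taken 6 h after the second dose, and the series places the samples at day 8 of differentiation. How the knockout was made, how many clones it comprises and whether the libraries of a group came from separate cultures are not given in the sources used here, so p-values measure the spread between these libraries, which may be technical.

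The chain passes electrons from NADH (complex I) or succinate (complex II) through ubiquinone to complex III, from there through cytochrome c to complex IV, and on to oxygen. Complexes I, III and IV pump protons, and complex V lets them return to make ATP. In erythroid cells the mitochondria also complete haem synthesis, and they are removed as red cells mature. Several subunits of complex IV have tissue isoforms, and many genes of the chain are known targets of the transcription factors NRF1, GABP (an ETS family protein) and YY1.

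Promoter stretches of 8 members, chosen to show each motif and 4 members that the results turn on, are shown from RefSeq (GRCh38.p14), running 5′ to 3′ on the gene's own strand from 90 bases before the annotated start to 30 bases after it. Capitals mark matches, on either strand, to GCATGCGC (the NRF1 motif searched), CCGGAAGT (ETS) or AAGATGGC (YY1). The first 4 stretches hold a match and the last 4 hold none. COX6B1 and COX6B2 are set next to each other because they encode alternative forms of one subunit.
ATP5ME, chr4:674247-674366, minus strand: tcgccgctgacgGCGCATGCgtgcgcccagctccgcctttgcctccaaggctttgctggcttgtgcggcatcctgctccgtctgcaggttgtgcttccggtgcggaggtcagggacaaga
COX5B, chr2:97645972-97646091, plus strand: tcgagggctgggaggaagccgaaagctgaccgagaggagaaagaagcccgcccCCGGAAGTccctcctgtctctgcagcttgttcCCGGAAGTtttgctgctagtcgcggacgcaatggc
NDUFA7, chr19:8321346-8321465, minus strand: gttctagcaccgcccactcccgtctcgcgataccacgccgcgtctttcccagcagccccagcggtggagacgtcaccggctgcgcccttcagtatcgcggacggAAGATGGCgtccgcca
SDHB, chr1:17054003-17054122, minus strand: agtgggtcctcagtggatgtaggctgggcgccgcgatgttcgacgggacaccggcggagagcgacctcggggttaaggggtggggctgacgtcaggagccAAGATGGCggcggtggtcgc
NDUFA1, chrX:119871742-119871861, plus strand: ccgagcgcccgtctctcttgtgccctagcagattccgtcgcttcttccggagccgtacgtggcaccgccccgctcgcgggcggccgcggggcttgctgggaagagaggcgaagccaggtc
NDUFB2, chr7:140696618-140696737, plus strand: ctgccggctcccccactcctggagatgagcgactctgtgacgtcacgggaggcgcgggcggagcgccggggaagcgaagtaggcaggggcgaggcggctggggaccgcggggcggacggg
COX6B1, chr19:35648233-35648352, plus strand: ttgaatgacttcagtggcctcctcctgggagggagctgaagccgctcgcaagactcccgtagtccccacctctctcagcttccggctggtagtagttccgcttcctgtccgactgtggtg
COX6B2, chr19:55354690-55354809, minus strand: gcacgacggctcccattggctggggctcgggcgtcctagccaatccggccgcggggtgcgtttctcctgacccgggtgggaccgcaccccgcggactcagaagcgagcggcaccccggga

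A RefSeq promoter of 250 bases before and 50 after the start was matched for 70 of the 90 members. At least 1 of the 3 motifs was found in 28 of these 70 (40%), against 13.2% of the 15842 promoters of protein-coding genes and 9.94% of all 27305 promoters of the same length. The NRF1 motif was in 13 member promoters (18.6%, against 4.26% of protein-coding promoters), the ETS motif in 10 (14.3%, against 6.19%) and the YY1 motif in 11 (15.7%, against 3.91%). The TATAAA motif, searched for comparison, was in 7 (10%, against 9.63%). NRF1 matches lay in complexes I, II, IV and V, with none among the 7 promoters of complex III, which held 3 ETS matches. These matches are letters in a window and describe no binding.

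Library totals ran from 19963594 to 30348538 counts, and the members together took 0.984% to 1.52% of them (exact 95% intervals 0.980 to 0.987 and 1.51 to 1.52, for counting error only). SLC48A1 stood at 65.4 to 82.2 CPM (counts scaled to a common library size with TMM factors) in untreated WT and 58.9 to 83.8 in treated WT, and at 2.94 to 8.32 and 6.02 to 10.1 in the KO libraries, so the genotype labels held. Its log2 change in KO was -3.63 ± 0.35 (SE, edgeR adjusted p = 1.82e-05) untreated and -3.07 ± 0.34 (adjusted p = 7.41e-05) with butyrate. All 10 erythroid markers of a fixed list had at least 10 counts in every library. Without butyrate their summed level was 8044 to 17612 CPM in WT and 3533 to 6213 in KO. With butyrate it was 26206 to 56556 CPM in WT and 4317 to 6377 in KO. Megakaryocyte markers, of which 3 of 6 had a mean under 1 CPM, summed to 33.1 to 60.3 CPM in WT and 15.1 to 55.3 in KO untreated, and to 117 to 227 and 80.6 to 118 with butyrate. Fibroblast and epithelial markers summed to 41.9 to 56.9 CPM in WT and 53.4 to 78.8 in KO untreated, and to 91.4 to 128 and 99.4 to 176 with butyrate. Myeloid markers, 5 of 6 with a mean under 1 CPM, summed to 12.2 to 17.1 and 3.37 to 9.23 untreated and to 18.7 to 25.1 and 23.9 to 29 with butyrate. Lymphoid markers summed to 6.82 to 9.28 CPM in WT and 5.14 to 6.28 in KO untreated. With butyrate they summed to 8.35 to 16 CPM in WT and 11.2 to 12.7 in KO. The treated and untreated ranges of the megakaryocyte, fibroblast and epithelial, and myeloid lists did not overlap in either genotype. Those of the lymphoid list overlapped in WT and did not overlap in KO. PTPRC, the blood cell antigen CD45, stood at 66.8 to 92.7 CPM in untreated WT and 13.8 to 85.8 in treated WT, and at no more than 0.666 in any KO library. RNA28SN5, a ribosomal RNA gene, took the largest share of counts in the library numbered 1 of every group (2.30% to 5.63%, against 0.673% to 2.86% in the others). The part of these differences in the results below was not tested. In bulk RNA, fewer cells of a kind and less RNA per cell cannot be told apart.

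Of the 90 members, 84 passed the filter on low counts and were tested among 15805 genes, and 80 had at least 10 counts in every library. The 6 not tested were ATP5MF-PTCD1 and the tissue isoforms COX4I2, COX6A2, COX7A1, COX7B2 and COX8C, none of which passed 22 counts in a library. COX6A2, the heart and muscle form, and ATP5MF-PTCD1 had 0 counts in all 12 libraries. COX4I2, a form known from lung and low oxygen, made up 0.0137% ± 0.0237 (SD, n = 3) of COX4 counts in untreated WT. COX7A1, the muscle form, made up 0.200% ± 0.145 (SD, n = 3) of the COX7A1 and COX7A2 counts in the same cells. The ubiquitous form thus supplied nearly all counts of these pairs, unlike the COX6B pair described below.

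Per kilobase of annotated exon, the levels spread widely within each complex in untreated WT. The length merges all annotated exons of a gene. It can therefore exceed that of the transcripts present, which lowers the value and adds to the spread. The median was 64.2 CPM per kilobase over complex I, 80.4 over complex II, 66.2 over complex III, 133 over the 13 tested subunits of complex IV and 97.7 over complex V. ATP5F1B, the catalytic beta subunit of ATP synthase, stood at 792 CPM per kilobase, and UQCRH, the hinge protein of complex III, at 834. ATP5PO, the stalk subunit OSCP, was at 447, and COX8A at 457. At the other end, ATP5F1E, the epsilon subunit, stood at 0.31 although the enzyme holds it in every assembled copy. ATP5F1E, UQCRH with its near-identical copy UQCRHL, and NDUFC2, NDUFB2 and ATP5MF, which overlap other annotated transcripts on the same strand, can share reads with other genes, and their values are uncertain. ATP5PO, COX6B2, NDUFV2 and SDHD overlap annotated transcripts that carry no gene name, which could also take reads.

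The typical subunit was slightly lower with butyrate in both genotypes, and the summed level of each of the 5 complexes was lower too. Complex I subunits summed to 5123, 3906 and 3616 CPM in the 3 untreated WT libraries and to 4005, 3174 and 2895 in the treated ones. In KO the sums were 4644, 3396 and 3732 untreated and 3514, 2627 and 3356 treated. Library 1 was the highest of its group in each of these, and treated and untreated libraries overlapped. Compared between libraries of the same number, every complex was lower with butyrate in all 3 pairs in both genotypes.

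Over all members the treated sum was 0.834, 0.798 and 0.824 of the untreated one in the 3 WT pairs and 0.742, 0.787 and 0.869 in the KO pairs. The group means differed by -20.3% for complex I, -17.8% for complex II, -21.0% for complex III, -15.8% for complex IV and -16.1% for complex V in WT. In KO they differed by -19.3%, -12.7%, -24.4%, -19.4% and -21.0% in the same order. Taken over groups without the pairing, the two-sided exact permutation test of the members' summed CPM gave p = 0.3 in WT and p = 0.3 in KO, where 0.1 is the smallest that 3 against 3 libraries allow. The pairing rests on library numbers that the data link, not on a stated shared culture.

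**Figure D1:**
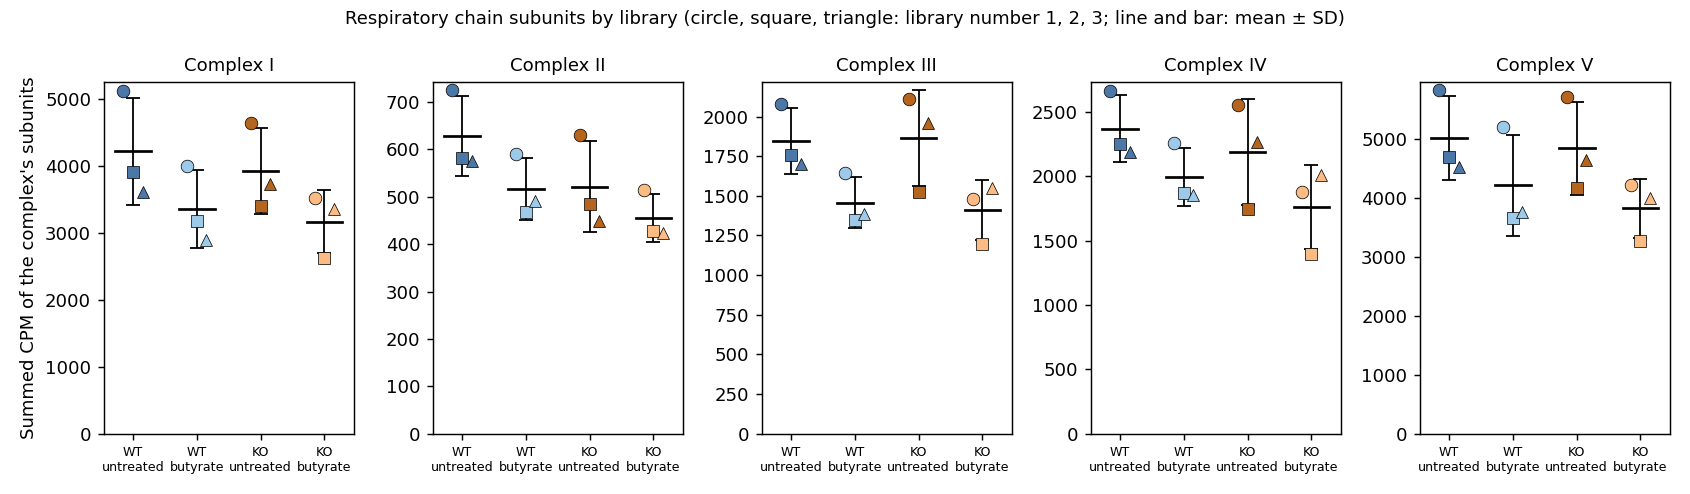
Summed CPM of the subunits of each complex (y axis, from 0) in the 4 groups (x axis). Points are libraries, with circle, square and triangle for library number 1, 2 and 3, and lines with bars are means ± SD. For complex I the treated WT libraries sit at 2895 to 4005 and the untreated ones at 3616 to 5123, with the library numbered 1 highest in each group.

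Complex I supplied 29.8% ± 1.3 (SD, n = 3) of the summed CPM of the 5 complexes in untreated WT and 29.1% ± 1.2 in treated WT. In KO it supplied 29.4% ± 0.7 and 29.8% ± 0.4. Complex V, the largest contributor, ranged from 34.8% to 38% over the 12 libraries, and complex II, the smallest, from 3.45% to 4.81%. Between genotypes in untreated cells complex II supplied 4.47% ± 0.09 in WT and 3.92% ± 0.43 in KO (SD, n = 3). The two-sided exact permutation test gave p = 0.1 for this difference, the smallest that 3 against 3 libraries allow. With butyrate complex II supplied 4.49% ± 0.21 in WT and 4.32% ± 0.55 in KO (SD, n = 3, two-sided exact permutation p = 0.8). Every other comparison of a complex's share, between treatments or genotypes, had a two-sided exact permutation p of 0.2 or more.

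Gene by gene, 73 of the 84 tested members had a fitted log2 change below 0 with butyrate in WT, where 47.5% of all tested genes did, and 74 in KO, against 49.3%. The members' median was -0.32 in WT and -0.35 in KO, beside all-gene medians of 0.02 and 0.00. The median of the complexes lay between -0.27 (complex IV) and -0.36 (complex I) in WT and between -0.28 (complex II) and -0.43 (complex III) in KO. In all 3 same-number pairs 57 members were lower in WT (22.0% of all genes were) and 61 in KO (27.0%). Treated and untreated groups did not overlap for 27 members in WT, all of them lower (21.7% of all genes in either direction), and for 19 in KO, 18 lower and 1 higher (24.4%). Among 4487 genes with a mean of at least 50 CPM the medians were -0.10 and -0.15, against -0.31 and -0.35 for the 69 members above that level.

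**Figure D2:**
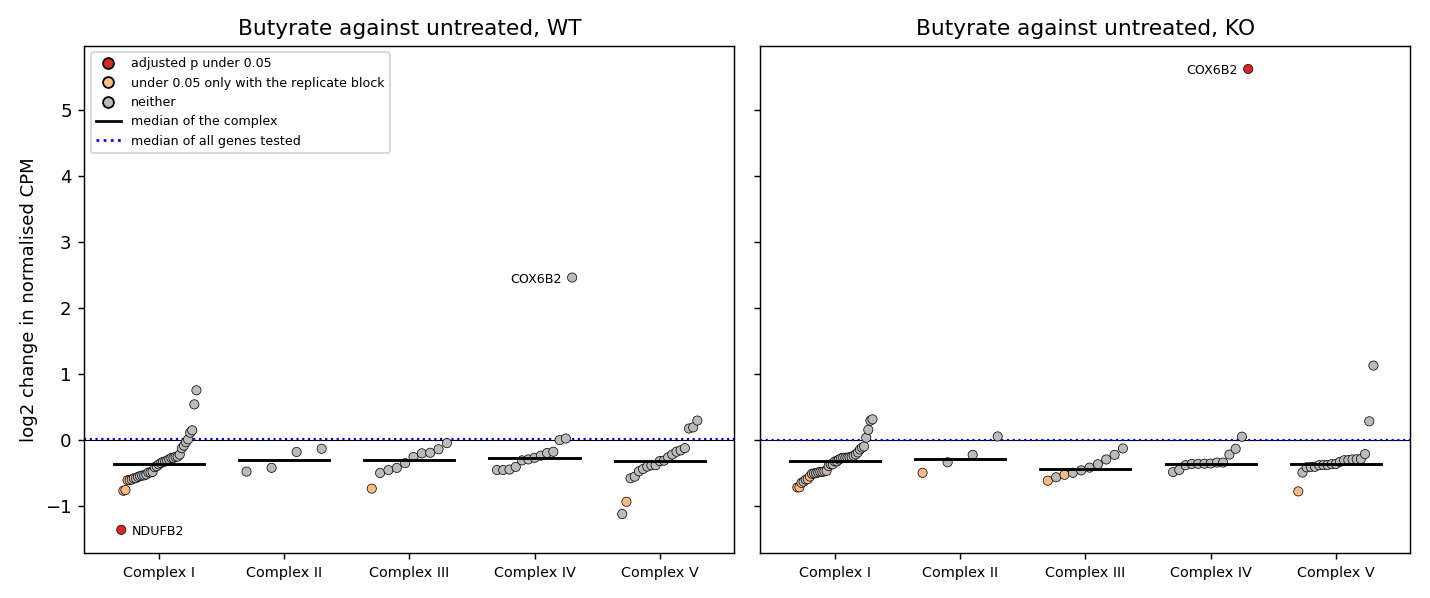
Fitted log2 change with butyrate (y axis) of each tested subunit, by complex (x axis), in WT (left) and KO (right). Black lines are the medians of the complexes, from -0.27 to -0.36 in WT and -0.28 to -0.43 in KO, and the dotted line is the median of all tested genes. NDUFB2 in WT and COX6B2 in KO are the only members past the adjusted threshold without the replicate block.

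Few single subunits passed the test. In the edgeR fit without pairing 1 member passed an adjusted p of 0.05 in WT, against 2.35% of all tested genes, and 1 in KO, against 3.40%. With the library number added as a block, 8 passed in WT (8.61% of all genes), all lower, where 3.14% of all genes were called lower. In KO 11 passed with the block (11.7% of all genes), 10 of them lower, where 3.92% of all genes were. Of the 8 called in WT, 6 belong to complex I, which holds 37 of the 84 tested members.

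NDUFB2, an accessory subunit of the membrane arm of complex I, was the member that fell in WT. It stood at 37.7, 18.8 and 21.1 CPM untreated and at 11.5, 9.60 and 9.22 with butyrate, and the groups did not overlap. Its log2 change was -1.35 ± 0.32 (SE, edgeR adjusted p = 0.0484), and -1.29 with the block (adjusted p = 0.00468). In KO it stood at 22.6, 13.6 and 16.6 CPM untreated and 14.7, 8.92 and 11.3 treated, a log2 change of -0.60 ± 0.32 (adjusted p = 0.326). The WT call without the block was lost when any library other than replicate 1 of treated WT was left out, with adjusted p between 0.0795 and 0.192.

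Core subunits of complex I were among the members called lower with the block in both genotypes. NDUFS1, the largest subunit of the electron input module, which carries iron-sulphur clusters, stood at 126, 124 and 110 CPM in untreated WT and 99.8, 70.8 and 70.6 in treated WT. In KO it stood at 195, 196 and 150 CPM untreated and 152, 113 and 95.4 treated. Its log2 change with the block was -0.59 in WT (adjusted p = 0.0367 with the block, 0.182 without it) and -0.60 in KO (0.0284 and 0.152). NDUFS3 changed by -0.65 in WT and -0.66 in KO with the block (adjusted p = 0.0263 and 0.0206). The accessory subunits NDUFA6 (-0.79, adjusted p = 0.00797) and NDUFA9 (-0.74, 0.0131) also fell in WT with the block. In KO the accessory subunits called lower with the block were NDUFA5, NDUFA6, NDUFAB1 and NDUFB1, with log2 changes from -0.72 to -0.50.

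Outside complex I the blocked fit called few members in either genotype. UQCRFS1, the Rieske iron-sulphur protein of complex III, stood at 165, 119 and 135 CPM in untreated WT and 101, 74.8 and 76.7 in treated WT, with no overlap. Its log2 change with the block was -0.73 in WT (adjusted p = 0.0101) and -0.51 in KO (0.0361), against adjusted p of 0.0901 and 0.181 without it. UQCRB, a small subunit near the ubiquinone site, and SDHB, the iron-sulphur subunit of complex II, fell in KO with the block (log2 change -0.63, adjusted p = 0.0468, and -0.48, 0.0483). Of complex V, ATP5MC1, one of 3 genes for the identical c ring subunit, fell in WT with the block (-0.89, adjusted p = 0.0469), and ATP5ME, a small membrane subunit, fell in KO (-0.77, 0.0271). ATP5IF1, the inhibitor of ATP synthase that is known to affect haem synthesis in erythroid cells, stood at a mean of 113 ± 22.5 CPM untreated and 83.6 ± 19.9 treated in WT (SD, n = 3), a log2 change of -0.44 ± 0.24 (adjusted p = 0.372). In KO it stood at 117 ± 17.8 and 88.6 ± 20.4, a change of -0.40 ± 0.24 (0.381).

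A handful of members had fitted changes above 0 with butyrate in both genotypes, and of these only COX6B2 passed the test. They were NDUFB9 (log2 change 0.54 in WT and 0.32 in KO), NDUFC2 (0.76 and 0.30), NDUFV3 (0.15 and 0.16), NDUFB10 (0.11 and 0.04), NDUFA4 (0.03 and 0.05) and ATP5F1D (0.19 and 0.29). NDUFA4, which takes part in complex IV, stood at 193, 152 and 194 CPM in untreated WT and 229, 160 and 159 in treated WT. COX7C had the lowest change of complex IV in KO (-0.48 ± 0.27, edgeR adjusted p = 0.35). UQCR11 had the change nearest 0 in complex III (-0.04 and -0.12), with values on both sides of 0 across processing choices.

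COX6B2, the testis form of a complex IV subunit whose ubiquitous form is COX6B1, had the widest range of values. It stood at 3.36, 2.64 and 6.15 CPM in untreated WT and 2.49, 25.9 and 38.7 in treated WT. In untreated KO only 2, 0 and 13 counts were found (0.107, 0 and 0.435 CPM), and in treated KO 1.65, 10.9 and 17.4 CPM. Libraries 2 and 3 of the treated groups were the highest. Library 1 of treated WT was below every untreated WT library, while library 1 of treated KO was above every untreated KO library. The rise in KO was 5.61 ± 1.21 (SE) in log2 units (edgeR adjusted p = 0.0286) and rests on the few counts of the untreated group. The change of 2.46 ± 0.98 in WT had an adjusted p of 0.206 (0.044 without replicate 1 of treated WT, and 0.0151 without the 4 libraries numbered 1), and the difference between the genotypes' responses was not called (interaction 3.15 ± 1.47). Untreated KO was below untreated WT by a log2 change of -4.32 ± 1.17 (adjusted p = 0.0189).

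As a share of COX6B1 and COX6B2 counts, COX6B2 made up 2.08% ± 1.26 in WT and 0.114% ± 0.150 in KO without butyrate, and 11.2% ± 9.5 and 6.94% ± 4.93 with it (SD, n = 3). In the treated WT libraries the shares were 1.23%, 12.1% and 20.2%, with exact 95% intervals of 0.911 to 1.63, 11.2 to 13.1 and 19.2 to 21.2. The rise in KO lost its call without replicate 1 or 2 of untreated KO or replicate 2 or 3 of treated KO (adjusted p = 0.113, 0.135, 0.0962 and 0.0723). The untreated genotype difference lost its call without replicate 3 of WT or replicate 1 or 2 of KO (0.0560, 0.0690 and 0.0666). With limma-voom neither passed (0.216 and 0.201).

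Between genotypes 14 members passed the test in at least 1 state, 7 of them with and without butyrate. The matching counts over all genes are not given here, and the shares within each state follow. Without butyrate 10 of 84 passed the test, against 22.6% of all tested genes, with 8 lower in KO (10.9% of all genes) and 2 higher (11.7%). With butyrate 11 passed, against 19.0%, with 8 lower (8.89%) and 3 higher (10.1%). The called shares of the members were therefore below those of all genes for higher calls and near them for lower calls. In both states 7 were called, namely ATP5F1A, ATP5MF, ATP5PO, NDUFA1, NDUFA5, NDUFB3 and NDUFV2. With the block 22 passed untreated (33.0% of all genes), 15 lower (16.1%) and 7 higher (16.9%), and 21 with butyrate (29.2%), 14 lower (13.6%) and 7 higher (15.6%). The genotype groups did not overlap for 22 members untreated (42.3% of all genes) and 29 with butyrate (33.9%).

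The 2 comparisons share no library. Over the 84 members their log2 changes had a Pearson r of 0.71 and a Spearman rho of 0.86 across genes, which are not independent replicates and which share the 2 cell lines, and 72 had the same sign. The median member change was -0.08 untreated and -0.11 with butyrate, beside all-gene medians of 0.02 and -0.00. By complex the medians were -0.07 and -0.06 for complex I, -0.35 and -0.36 for complex II, 0.12 and 0.01 for complex III, -0.14 and -0.14 for complex IV and -0.10 and -0.27 for complex V. With scaling by library size alone the all-gene median with butyrate was 0.087 and the member median 0.0045. Leaving out replicate 1 of untreated WT moved the untreated one to 0.04.

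**Figure D3:**
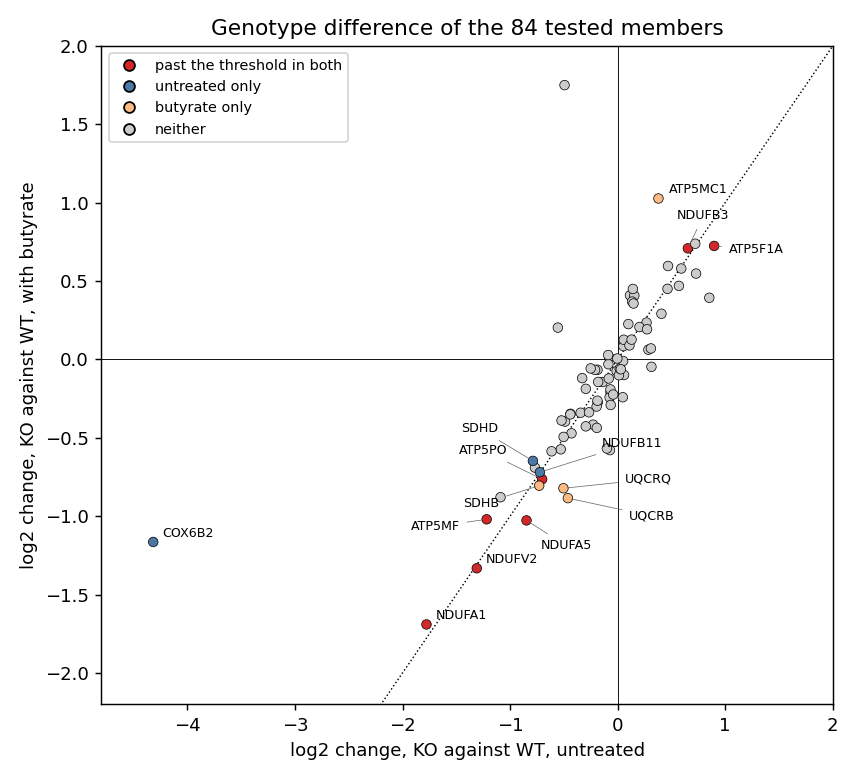
Fitted log2 change, KO against WT, of each tested member in untreated cells (x axis) and with butyrate (y axis). The dotted line marks equal changes, and colours mark where a member passed the adjusted threshold. The 7 members called in both states lie near the line, from NDUFA1 at -1.78 and -1.69 to ATP5F1A at 0.90 and 0.72.

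NDUFA1, an accessory subunit encoded on the X chromosome (119871832 to 119876662, GRCh38) that is needed to assemble complex I, had the lowest genotype change after COX6B2 in untreated cells and the lowest of all members with butyrate. It stood at 156, 128 and 135 CPM in untreated WT and 49.3, 27.3 and 45.4 in untreated KO. With butyrate the values were 98.8, 84.4 and 94.1 in WT and 28.9, 20.9 and 36 in KO. The log2 change was -1.78 ± 0.25 (SE, edgeR adjusted p = 0.000301) and -1.69 ± 0.25 (0.00057), and both calls held without any 1 library. NDUFV2, the core subunit that carries one of the iron-sulphur clusters of the electron input module (chromosome 18, 9102699 to 9134341), stood at 234, 227 and 192 CPM in untreated WT and 105, 78.7 and 80.0 in untreated KO. With butyrate it stood at 236, 166 and 147 in WT and 97.7, 60.8 and 59.6 in KO. Its change was -1.31 ± 0.25 (0.00217) and -1.33 ± 0.25 (0.00249), and these calls also held without any 1 library.

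NDUFA5, an accessory subunit of the matrix arm (chromosome 7, 123536997 to 123601651), was at 265, 194 and 171 CPM in untreated WT and 157, 100 and 93.3 in untreated KO. With butyrate it was at 158, 148 and 129 in WT and 84.2, 67.6 and 61.9 in KO. KO libraries were below WT libraries in both states, with log2 changes of -0.85 ± 0.24 (SE, edgeR adjusted p = 0.0223) and -1.03 ± 0.24 (0.00997). The untreated call was lost without replicate 1 of WT or replicate 2 or 3 of KO (adjusted p = 0.0975, 0.0760 and 0.0723). NDUFB11, also on the X chromosome, stood at 157, 119 and 118 CPM in untreated WT and 93.2, 68.1 and 77.1 in untreated KO, a change of -0.72 ± 0.24 (adjusted p = 0.047) that lost its call when any 1 of the 6 libraries was left out. NDUFB3, a small membrane arm subunit on chromosome 2, went the other way. It stood at 43.6, 37.4 and 38.8 CPM in untreated WT and 77.0, 50.3 and 61.0 in untreated KO, a change of 0.65 ± 0.19 (0.0286), and with butyrate the change was 0.71 ± 0.19 (0.0224). These calls were lost without any of 4 and of 3 single libraries, with adjusted p up to 0.131 and 0.0757. NDUFS5, an accessory subunit, stood at 241, 130 and 142 CPM in untreated WT and 348, 222 and 276 in untreated KO. It was called higher only with the block (0.74, adjusted p = 0.00846, and 0.72, 0.0112, with butyrate), as was NDUFC2 in untreated cells (0.85, 0.0392). The core subunit NDUFS1 was also called higher in KO only with the block, in both states. Its changes without the block were 0.59 untreated and 0.58 with butyrate.

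In complex II, 2 of the 4 subunits were called between genotypes without the block, each in 1 state. The summed CPM of the complex had a two-sided exact permutation p of 0.3 in both states. SDHB stood at 153, 122 and 99.6 CPM in untreated WT and 96.4, 67.3 and 62.3 in untreated KO. With butyrate it was at 126, 78.1 and 76.2 in WT and 63.9, 50.3 and 46.3 in KO, and the genotypes did not overlap in either state. The log2 change was -0.73 ± 0.26 untreated (SE, edgeR adjusted p = 0.0615, 0.00193 with the block) and -0.81 ± 0.26 with butyrate (0.047), a call that was lost without any of 4 single libraries (up to 0.133). SDHD, a membrane anchor, stood at 218, 157 and 148 CPM in untreated WT and 129, 85.4 and 88.3 in untreated KO. Its change was -0.79 ± 0.23 (0.0245, lost without any of 3 single libraries, up to 0.106) untreated and -0.65 ± 0.23 (0.0642, and 0.00419 with the block) with butyrate. The catalytic SDHA and the anchor SDHC did not pass in either state, with changes of 0.03 and -0.06 and of 0.13 and 0.37. SDHA stood at 202 ± 16.5 CPM in untreated WT and 206 ± 38.4 in untreated KO (SD, n = 3).

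Complex III held no call between genotypes without butyrate and 2 with it, both lower. With the block 1 member was called lower untreated (UQCRQ, log2 change -0.51, edgeR adjusted p = 0.0433), and 2 lower and 1 higher with butyrate. The higher one was UQCR10, a small subunit, which stood at 50.3, 50.1 and 48.5 CPM in treated WT and 77.5, 63.3 and 84.2 in treated KO (0.59 with the block, adjusted p = 0.0297, and 0.0916 without it). UQCRB stood at 163, 136 and 148 CPM in treated WT and 95, 52.4 and 94.6 in treated KO, a log2 difference of -0.89 ± 0.24 (edgeR adjusted p = 0.0206, and 0.0572 without replicate 2 of treated KO). UQCRQ, another small subunit at the ubiquinone side, stood at 75.1, 57.3 and 46.6 CPM in treated WT and 40.0, 25.2 and 36 in treated KO, a change of -0.82 ± 0.27 (0.0492) that was lost without any of 5 single libraries (up to 0.155). CYC1, the cytochrome c1 haem protein, stood at 325, 283 and 231 CPM in untreated WT and 185, 190 and 209 in untreated KO. The CYC1 groups did not overlap, but the change of -0.52 ± 0.21 did not pass (0.0958). In complex IV the highest genotype change was that of COX4I1 (0.27 untreated and 0.24 with butyrate, edgeR adjusted p = 0.417 and 0.506). COX6B2 in untreated cells was the only member of complex IV called without the block. NDUFA4 and COX5B passed with the block in untreated cells (-0.61, adjusted p = 0.00943, and -0.50, 0.0324), and NDUFA4 also with butyrate (-0.59, 0.0129).

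Complex V held calls in both directions. ATP5F1A, the alpha subunit of the catalytic head, stood at 532, 411 and 509 CPM in untreated WT and 1091, 734 and 881 in untreated KO. With butyrate it stood at 543, 354 and 409 in WT and 810, 602 and 746 in KO. Its log2 change was 0.90 ± 0.23 (SE, edgeR adjusted p = 0.013) and 0.72 ± 0.23 (0.0413), lost without replicate 2 of WT or 1 of KO untreated (up to 0.0604) and without any of 4 libraries with butyrate (up to 0.158). ATP5F1B, with which it alternates in the head at equal number, stood at 1456 ± 180 CPM in untreated WT and 1391 ± 207 in untreated KO (SD, n = 3). ATP5PO, the subunit that joins the head to the peripheral stalk (chromosome 21, 33903453 to 33915804), stood at 444, 422 and 385 CPM in untreated WT and 282, 207 and 279 in untreated KO. Its change was -0.70 ± 0.20 (0.0248) and -0.76 ± 0.20 (0.0193). These calls were lost without replicate 1 or 2 of WT or 2 of KO untreated (0.0750, 0.0669 and 0.0868), and without replicate 2 of KO treated (0.0669). All 4 peripheral stalk subunits had changes below 0 in both states, with medians of -0.36 and -0.57.

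ATP5MF, a membrane subunit on chromosome 7, stood at 61.3, 40.9 and 32.5 CPM in untreated WT and 22.5, 19.2 and 16.2 in untreated KO. With butyrate it stood at 40.4, 25.5 and 24.5 in WT and 18.5, 10.9 and 15.2 in KO, and the genotypes did not overlap in either state. The log2 change was -1.22 ± 0.30 (SE, edgeR adjusted p = 0.0116) and -1.02 ± 0.30 (0.0314), lost without replicate 1 of untreated WT (0.0572) and without any of 3 treated libraries (up to 0.109).

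ATP5MC1, ATP5MC2 and ATP5MC3 encode the same mature protein with different import sequences. ATP5MC1 stood at 27.7, 46.1 and 40.8 CPM in treated WT and 81.4, 73.9 and 78.4 in treated KO, a difference of 1.03 ± 0.26 on the log2 scale (edgeR adjusted p = 0.0168) that held without any 1 library. In untreated cells it stood at 93.6, 65.1 and 60.0 CPM in WT and 131, 75.8 and 78.2 in KO (0.38 ± 0.26, adjusted p = 0.337). ATP5MC3, the most abundant of the 3 in WT, stood at 709, 434 and 462 CPM in untreated WT and 405, 253 and 285 in untreated KO, a change of -0.77 ± 0.27 (0.0615, and 0.00219 with the block). In KO ATP5MC2 stood above it, at 376 ± 47.7 CPM untreated against 314 ± 80.3 (SD, n = 3). With butyrate the change in ATP5MC3 was -0.69 ± 0.27 (0.0996, and 0.00621 with the block). ATP5MC1 made up 7.47% ± 0.33 of the 3 genes' counts in untreated WT and 11.9% ± 1.8 in untreated KO, and 5.63% ± 2.11 and 12.8% ± 1.7 with butyrate. ATP5MC3 made up 54.7% ± 5.1 and 39.7% ± 2.8 untreated, and 57.1% ± 6.4 and 41.6% ± 4.4 with butyrate (SD, n = 3 each). The 3 genes summed to 970 ± 196 CPM in WT and 785 ± 149 in KO without butyrate, and to 711 ± 131 and 618 ± 102 with it.

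**Figure D4:**
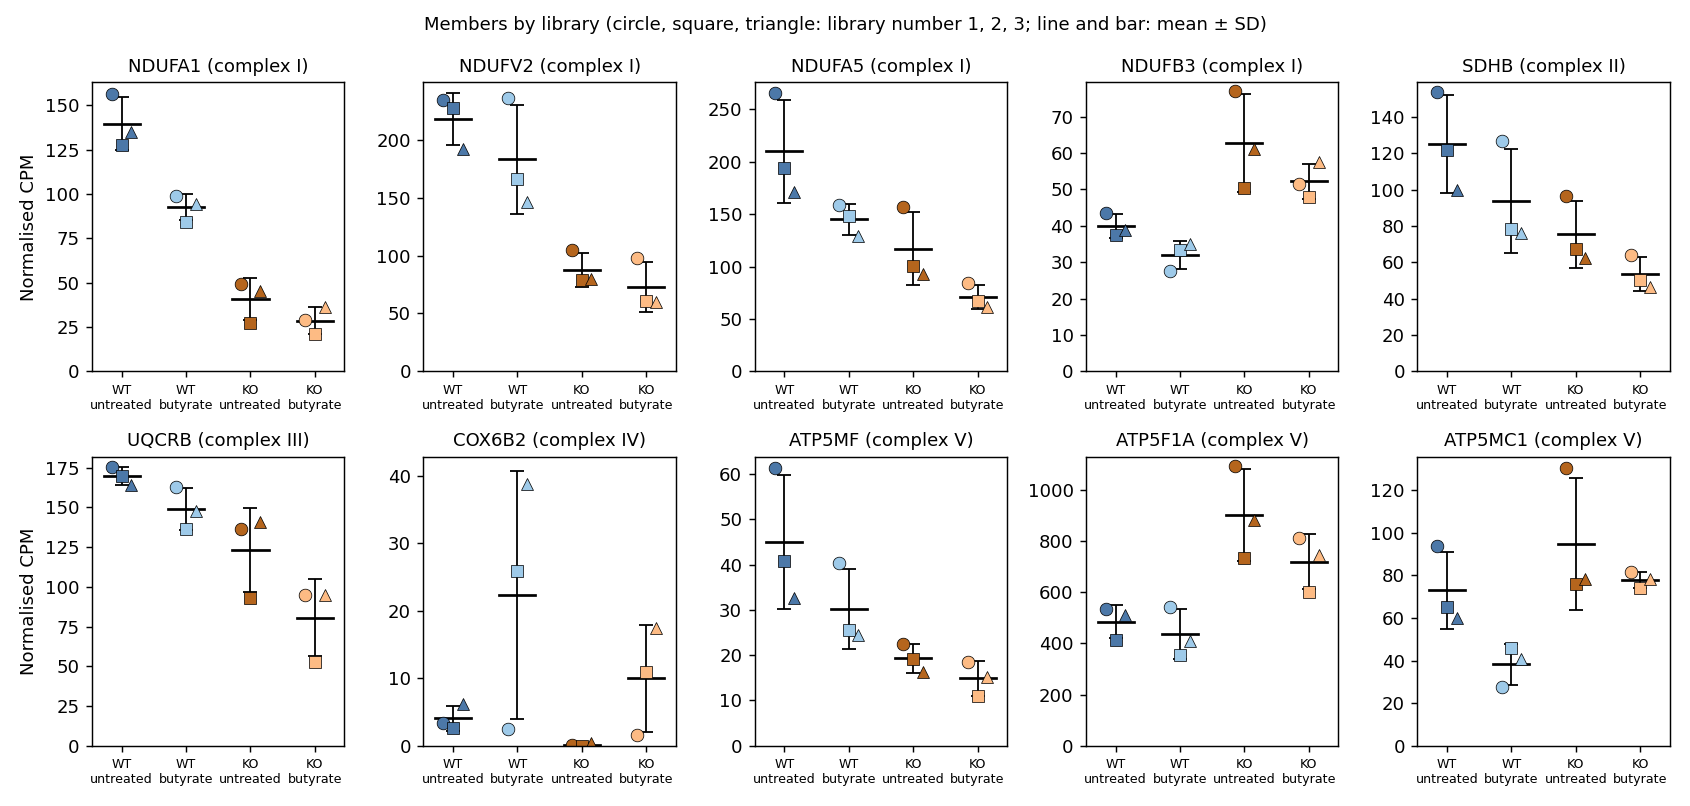
Normalised CPM (y axis, from 0) of 10 members in the 4 groups (x axis). Points are libraries, with circle, square and triangle for library number 1, 2 and 3, and lines with bars are means ± SD. NDUFA1 sits at 128 to 156 in untreated WT and 27.3 to 49.3 in untreated KO, and COX6B2 is highest in libraries 2 and 3 of the treated groups.

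The genotype changes of the members were set beside those of all tested genes on the same chromosome. On chromosome 7 all 4 tested members (ATP5MF, NDUFA4, NDUFA5 and NDUFB2) had changes below 0 untreated, with a median of -0.73, and the 758 tested genes of that chromosome had a median of -0.78, with 37.1% called lower. With butyrate 3 of the 4 were below 0 and the medians were -0.80 and -0.86. On chromosome 21 all 3 members (ATP5PF, ATP5PO and NDUFV3) were below 0 in both states, with medians of -0.53 and -0.57, and its 160 genes had medians of -0.34 and -0.35. On chromosome 14 both members had changes above 0 (median 0.65 untreated), as had the 480 genes of that chromosome (median 0.63). On chromosome 3 all 3 members did too (median 0.14, against 0.45 for its 844 genes).

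Some members lay far from the median of their chromosome. On the X chromosome the 4 members (3 below 0) had a median of -0.91 untreated and the 526 genes -0.29. That member median includes the pseudogene UQCRBP1, which had only 5 to 36 counts in a library. Of the subunits on the X chromosome, NDUFA1 lay at -1.78 and NDUFB11 at -0.72. COX7B, also on the X chromosome, had means of 115 CPM in untreated WT and 116 in untreated KO. Chromosome 18 holds the called pair NDUFV2 and ATP5F1A, which lay at -1.31 and 0.90, while its 194 genes had a median of -0.52. Chromosomes 1, 5 and 12, with 8, 6 and 5 members, had member medians of 0.09, 0.01 and -0.07 and gene medians of 0.10, 0.06 and 0.02. What part a chromosome-wide difference has in the change of any member was not tested.

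**Figure D5:**
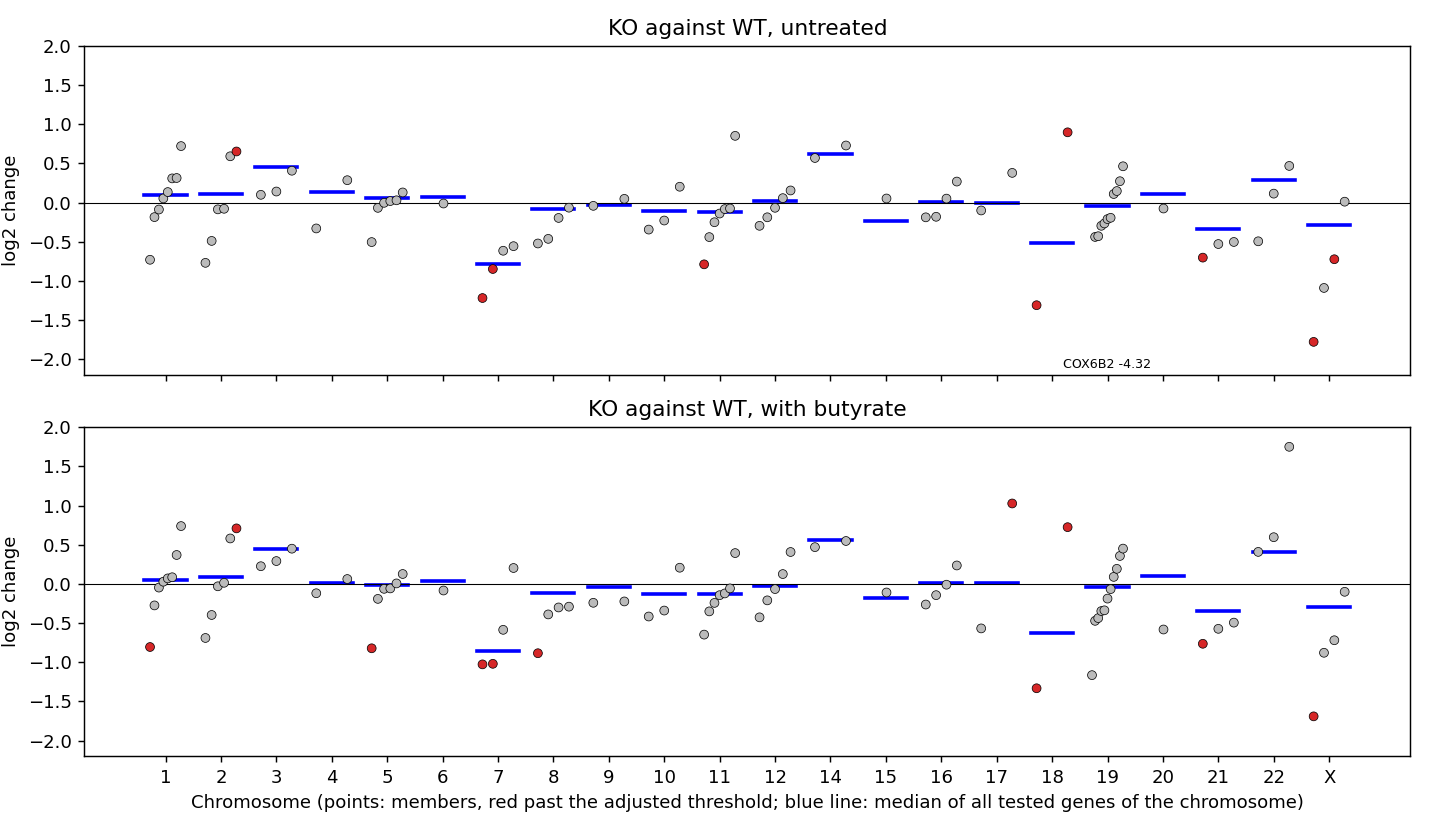
Log2 change, KO against WT, of tested members by chromosome (x axis), in untreated cells (top) and with butyrate (bottom). Points are members, red where past the adjusted threshold, and blue lines are medians of all tested genes of the chromosome. The 4 members of chromosome 7 lie near its median of -0.78 untreated. COX6B2 lies below the axis untreated, at -4.32.

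Whether butyrate acted differently in the 2 genotypes was tested by the interaction. No member passed, and 0% of all tested genes did (0 of 15805 with edgeR). With SEs of 0.33 to 0.45 for the members named below, a lack of calls cannot show that the genotypes responded alike. At an unadjusted p of 0.05 the count of members was 0, and 2 with the replicate block. The block, DESeq2 and limma-voom each called 0 members, while over all genes they called 3, 86 and 0. The median member interaction was -0.01. NDUFB2 (0.76 ± 0.45), ATP5MC1 (0.65 ± 0.37) and UQCRB (-0.42 ± 0.33) had some of the larger fitted interactions and did not pass (edgeR adjusted p = 1 for each).

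Other genes of mitochondrial energy metabolism were lower with butyrate by similar amounts. The median log2 change was -0.31 in WT and -0.35 in KO over 44 assembly factors, -0.36 and -0.35 over 14 genes of the TCA cycle, -0.33 and -0.37 over 77 mitochondrial ribosomal proteins and -0.32 and -0.38 over 12 genes of mitochondrial import and membranes. None of the assembly factors, TCA cycle or membrane genes passed the test for butyrate without the block. With the block, 5 assembly factors were called lower in WT and 8 in KO, and 2 and 4 TCA cycle genes, where 3.14% and 3.92% of all genes were. Cytosolic ribosomal proteins had medians of -0.09 in WT and -0.32 in KO over 83 genes, and 37 proteasome subunits -0.13 and -0.15.

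Between genotypes, of the 44 assembly factors 3 were called higher and 4 lower in untreated KO, where 11.7% and 10.9% of all genes were. ATPAF1, which helps build the catalytic head of complex V, was higher in KO than in WT among treated cells by 1.56 ± 0.18 (SE, log2, edgeR adjusted p = 0.000114). NUBPL, which inserts iron-sulphur clusters into complex I, was higher in untreated KO by 1.19 ± 0.28 (0.00821). SDHAF3, an assembly factor of SDHB, had a change of -1.35 ± 0.22 (0.000838). Of the 14 TCA cycle genes 3 were higher and 3 lower in each state. SUCLG2 and SUCLA2 are named as the GDP and ADP forming subunits of succinyl-CoA synthetase. That enzyme acts on succinyl-CoA, which is also the starting point of haem synthesis. SUCLG2 and SUCLA2 were higher in untreated KO by 1.76 ± 0.21 (8.96e-05) and 1.70 ± 0.24 (0.000269). DLST was also higher untreated, by 1.10 ± 0.16 (0.000423). The genes called lower untreated were MDH2, mitochondrial malate dehydrogenase (-0.94 ± 0.20, 0.00518), OGDH (-0.86 ± 0.20, 0.0083) and DLD (-0.56 ± 0.17, 0.0291). Among carriers CYCS, cytochrome c, was called only with butyrate (-0.82 ± 0.26, adjusted p = 0.0472). Among regulators of mitochondrial biogenesis ESRRA, the oestrogen-related receptor alpha, was lower in KO in both states (-0.65 ± 0.16, 0.0122, and -0.55 ± 0.16, 0.0317). Tested genes of whole chromosomes differed in level between the genotypes, with untreated medians from -0.78 on chromosome 7 to 0.93 on chromosome 13. The genes of these lists were not set beside their chromosomes, and what part such a difference has in their changes was not tested.

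Member promoters with and without the 3 motifs were lower with butyrate to a similar degree. Among tested members with a matched promoter, the 28 with a motif had a median log2 change of -0.39 in WT and -0.38 in KO, and the 39 without had -0.31 and -0.34. The 13 with the NRF1 motif had -0.45 and -0.36, and the 54 without it -0.32 and -0.36. All 11 with the YY1 motif lay below 0 in both genotypes, as did 49 of the 56 without it in WT and 53 in KO. The subunits encoded in mitochondrial DNA were not analysed here.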

How the data were processed

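The authors deposited raw counts by gene symbol in 1 table that covers 12 libraries. FastQC 0.12.1, STAR 2.7.11b and hg38 are named per the submitters' processing notes, with no stated order. The counting tool, the annotation and the use of strand are not given in the sources used here. Reads shared by overlapping genes or near-identical copies could therefore be counted to either or to none. Columns were matched to samples by library name, and 0 were left unused.

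The deposited counts went unchanged into edgeR 4.0.16 (R 4.3.3): filterByExpr (minimum count 10), TMM scaling, 1 mean per group over all 12 libraries, the quasi-likelihood F-test for 5 contrasts, and Benjamini-Hochberg adjustment over 15805 genes at 0.05. SEs are the log2 change divided by the square root of F. Permutation tests are two-sided and exact, with a smallest p of 0.1, on log2 of CPM + 0.5 for genes and on CPM or shares for sums. No replicate pair was a repeat of 1 library. Totals of 19963594 to 30348538 counts put 3 counts at 0.0953 to 0.162 CPM, and the common biological coefficient of variation was 0.384. Libraries of the same number deviated together (correlations 0.212 to 0.663 in the 4 contrasts, all above 0.1; libraries of different numbers reached 0.418), so they were also compared in pairs and with a block of library number. The main fit and its counts leave the pairing out, and not every call that the block changes is named. The pairing comes from the data and the numbers in the titles.

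Named genes are SLC48A1, every member past the threshold, the highest and lowest member of each complex in each contrast, isoform groups and ATP5IF1, plus genes of other pathway lists that passed. ATP5MGL, an extreme of complex V, has few counts and is named only among the results that depend on the processing. Members called only with the block, those above 0 with butyrate in both genotypes, the most abundant members, ATP5F1B and members named for their chromosome were chosen after their values were seen. Members and lists were chosen with earlier results of these data known. Chromosomes and starts are from RefSeq GRCh38.p14 (NDUFA4 from GENCODE 29), and exon lengths from GENCODE 29. Alternatives were other scalings, filters and tools (DESeq2 1.42.0, limma 3.58.1), the block, and libraries left out. The fit was tested on simulated data. Figures were drawn with matplotlib 3.10.9. The result of 1 member is not reported here.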

Additional observations from a re-analysis of the deposited data

How the results depend on the processing

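The members' median change with butyrate stayed below 0 under every alternative run, from -0.45 to -0.20 in both genotypes when single libraries were left out. The number of members called for butyrate in WT was 1, and 2 with library size alone, 4 with DESeq2, 0 with limma-voom, 0 with at least 10 counts in every library, 0 with only the compared groups in the fit and 7 without the 4 libraries numbered 1. Over all genes the calls were 372, 286, 1331, 214, 302, 63 and 1884 in the same order. The member count ran from 0 to 6 when single libraries were left out. The 6 came without replicate 1 of treated WT, where 1243 of all genes were called, against 43 to 158 without any other library. For butyrate in KO the member count was 1, and 0 with limma-voom, 0 with at least 10 counts in every library (which removes COX6B2), 3 without the 4 libraries numbered 1, and 0 to 1 with single libraries left out. All-gene calls were 537, 463, 304, 2164 and 48 to 833 in that order. Between genotypes the member count was 10 untreated, 16 with library size alone and 6 to 8 with single libraries left out, and 11 with butyrate, 4 with only the compared groups and 6 to 11 with single libraries left out. All-gene calls were 3574, 3416 and 2485 to 2844 untreated, and 3009, 1802 and 2014 to 3477 with butyrate. With library size alone the member calls between genotypes with butyrate were 6 higher and 9 lower, against 3 and 8 (2933 of all genes, against 3009). The interaction called 0 under every alternative. The cause of these differences was not tested, beyond the fewer libraries or genes an alternative holds.

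With the replicate block the member counts were 8, 11, 22 and 21 in the order above, against 1, 1, 10 and 11. Over all genes the block called 1361, 1852, 5217 and 4612, against 372, 537, 3574 and 3009. The member medians with the block were -0.31, -0.34, -0.09 and -0.10. For the members called in a contrast or extreme in their complex there, the block gained 8 calls and lost none. Calls that the block gave to other members, such as NDUFS3 with butyrate, lie outside those 8.

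Library size alone moved the median of all genes by 0.12 for butyrate in KO. The single member changes that reversed were those of UQCR11 with butyrate in WT (0.014 with at least 10 counts in every library, 0.054 without the 4 libraries numbered 1, and -0.22 to 0.23 over single libraries left out) and in KO (0.0074 with library size alone, 0.012 without the 4 libraries numbered 1, and -0.27 to 0.081), and the interaction of SDHA (0.040 with library size alone, and -0.26 to 0.11). With single libraries left out, the changes with butyrate ran from -0.20 to 1.08 for NDUFC2, -0.13 to 0.86 for ATP5F1E and -1.66 to 1.30 for ATP5MGL in WT, and from -0.030 to 0.18 for SDHC in KO. The interactions ran from -1.15 to 0.50 for NDUFC2, -0.30 to 0.077 for COX5A and -0.17 to 2.88 for ATP5MGL. None of these reversed values was past the threshold, and the cause was not tested.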
